A study of Danio rerio with 3 samples.

Results

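The miR-181 family was followed in small RNA libraries of whole zebrafish larvae. Its members were the sequences with a mature miR-181 name of any letter, arm, end form or species prefix. The family itself was chosen by values of these same libraries, among them the lower level of miR-181b-5p at the highest dose, so the levels below are a description and support nothing by themselves. The table held 20 such rows, which merged to 18 distinct sequences of 1202 in all. Of the 18, 12 carried a zebrafish name and 6 a name from carp (ccr), salmon (ssa), lamprey (pma), anole lizard (aca) or zebra finch (tgu).

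The larvae were wild-type fish of the AB strain, 7 days after fertilisation, and belonged to the generation after the exposed one (F1) in all 3 groups. Exposure of the parents (F0) began 6 hours after fertilisation and lasted 90 days, with 6 β-diketone antibiotics mixed in equal parts by weight. These were 3 fluoroquinolones (ciprofloxacin, enrofloxacin, ofloxacin) and 3 tetracyclines (chlortetracycline, doxycycline, oxytetracycline). The parents of the control library received 0 mg/L, those of the low-dose library 6.25 mg/L and those of the high-dose library 12.5 mg/L. With 1 library for each dose there was no replicate check and no test, and "higher" and "lower" describe these libraries. Counts summed to 4534557 in the control library, 5099264 in the low-dose library and 6041242 in the high-dose library. Levels are the authors' normalised reads, which are counts scaled by 1 factor per library. Intervals are 95% exact binomial (Clopper-Pearson) intervals of rounded counts and cover counting error only, since PCR copies of a molecule are read as separate counts and the spread between larvae is unknown. The labels do not give the number of larvae in a library. In whole larvae, fewer cells of a type and less miRNA per cell cannot be told apart.

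A miRNA is cut from a hairpin whose arms are named 5p and 3p, and one arm is usually kept while the other is mostly lost. The kept strand finds its targets mainly through the seed, bases 2 to 8 from its 5′ end. The miR-181 family is conserved among vertebrates and is known from brain, retina and developing lymphocytes. In mouse thymocytes miR-181a tunes the sensitivity of T-cell receptor signalling, and in medaka miR-181a and miR-181b take part in the growth of retinal axons. The RefSeq annotation of the zebrafish assembly GRCz12tu lists 10 genes of the family, 5 for miR-181a, 3 for miR-181b, 1 for miR-181c and 1 for miR-181d. All 10 lie next to another gene of the family, so that each miR-181a gene is paired with a miR-181b, miR-181c or miR-181d gene. No sequence under a miR-181d name was analysed here.

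The sequences below carry the comparison of paralogs, arms and ends, with the seed in capitals, as deposited (T for U). In the names, R+1, R+2 and R-1 mark bases added or missing at the 3′ end of the annotated form, L+3 marks bases added at the 5′ end, and a substitution is written with the annotated base, the position from 1 at the 5′ end, and the base in the read. These marks come from the deposited names.
miR-181a-5p: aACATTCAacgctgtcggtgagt
miR-181a-5p R+2: aACATTCAacgctgtcggtgagttt
miR-181b-5p R+1: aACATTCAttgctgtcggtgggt
miR-181b-5p R+2: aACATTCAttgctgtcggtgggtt
miR-181c-5p R+1 (carp name): cACATTCAttgctgtcggtgggt
miR-181a-5p with C3A and G20T (lizard name): aAAATTCAacgctgtcggttagt
miR-181a-5p L+3 (lamprey name): aTCAACATtcaacgctgtcggtgagt
miR-181a-3p: aCCATCGAccgttgattgtacc
miR-181a-3p with T16C: aCCATCGAccgttgactgtacc
miR-181a-3p with T16C and A20G: aCCATCGAccgttgactgtgcc
miR-181b-3p with G16A (salmon name): cTCACTGAacaatgaatgcaa
miR-181c-3p R-1: cTCGCCGGacaatgaatgaga

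Most 5p sequences had the same seed, and the 3p arms of the 3 paralogs did not. Of the 9 5p sequences, 7 had the seed ACATTCA, and no other sequence in the table had it. From miR-181a-5p to miR-181b-5p R+1 the differences over 23 positions were A9T, C10T and A21G, all outside the seed. From miR-181b-5p R+1 to miR-181c-5p the only difference was A1C, at the base before the seed. The 5 miR-181a-3p sequences had the seed CCATCGA. From the salmon-named miR-181b-3p to miR-181c-3p there were 5 differences over 21 positions, A4G, T6C, A8G, C19A and A20G, of which the first 3 lie in the seed.

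The family was among the most abundant of the larval miRNAs. Its 18 sequences took 14.5% of counts in the control library (interval 14.48 to 14.54), 14.2% in the low-dose library (14.1 to 14.2) and 11.4% in the high-dose library (11.4 to 11.5). Their summed level was 776078 normalised reads in the control library, 737566 in the low-dose library and 489903 in the high-dose library. The high-dose library was thus 1.58-fold lower than the control library (ratio 0.631, interval 0.629 to 0.633), and the low-dose library was 1.05-fold lower (interval of the ratio 0.947 to 0.954). The size of the difference at the high dose depended on the scaling. On the log2 scale it was -0.66 with the authors' normalised values and -0.34 when libraries were scaled to equal totals, which raises every log2 ratio of the high-dose library to the control library by 0.32. Scaling by the median of ratios moves them by -0.12 instead. The high-dose library had the largest total count and the smallest of the authors' factors, 0.709, against 1.18 in the control library.

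miR-181a-5p, the main product of the miR-181a genes, was the most abundant member. It had 313891 normalised reads in the control library, 318812 in the low-dose library and 197975 in the high-dose library. Among all sequences it ranked 4 in the control library, 2 in the low-dose library and 4 in the high-dose library. Its form 1 nt shorter at the 3′ end had 131346, 129417 and 85434 normalised reads in the order of doses. Both forms were thus almost level at the low dose, with log2 ratios of 0.02 and -0.02 that change sign with the scaling, and lower in the high-dose library, 1.59-fold for the full form (ratio 0.631, interval 0.627 to 0.634) and 1.54-fold for the shorter form (0.650, 0.645 to 0.656).

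The R+2 form of miR-181a-5p followed another course. It had 26397 normalised reads in the control library, 19342 in the low-dose library and 23597 in the high-dose library, so that it was lowest in the low-dose library. Against the control its ratio was 0.733 at the low dose (0.719 to 0.747) and 0.894 at the high dose (0.879 to 0.909), and the high-dose comparison turned positive, at a log2 ratio of 0.16, with equal totals.

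miR-181b-5p, which has the seed of miR-181a-5p, was lower at both doses. Its R+1 form had 152054 normalised reads in the control library, 136304 in the low-dose library and 86852 in the high-dose library. Its R+2 form had 120906, 103598 and 71394 in that order. The values of both forms descended with dose. Against the control library the R+1 form had a ratio of 0.896 in the low-dose library (0.890 to 0.903) and 0.571 in the high-dose library (0.567 to 0.576), the lowest high-dose ratio among the 16 members with a mean of at least 10 normalised reads. The R+2 form had ratios of 0.857 (0.849 to 0.864) and 0.590 (0.585 to 0.596).

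miR-181c-5p, read under its carp name, was the scarcest of the 5p paralogs. It had 12268 normalised reads in the control library, 10781 in the low-dose library and 7792 in the high-dose library. Its values also descended with dose, with ratios of 0.879 in the low-dose library (0.855 to 0.903) and 0.635 in the high-dose library (0.618 to 0.652).

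**Figure D1:**
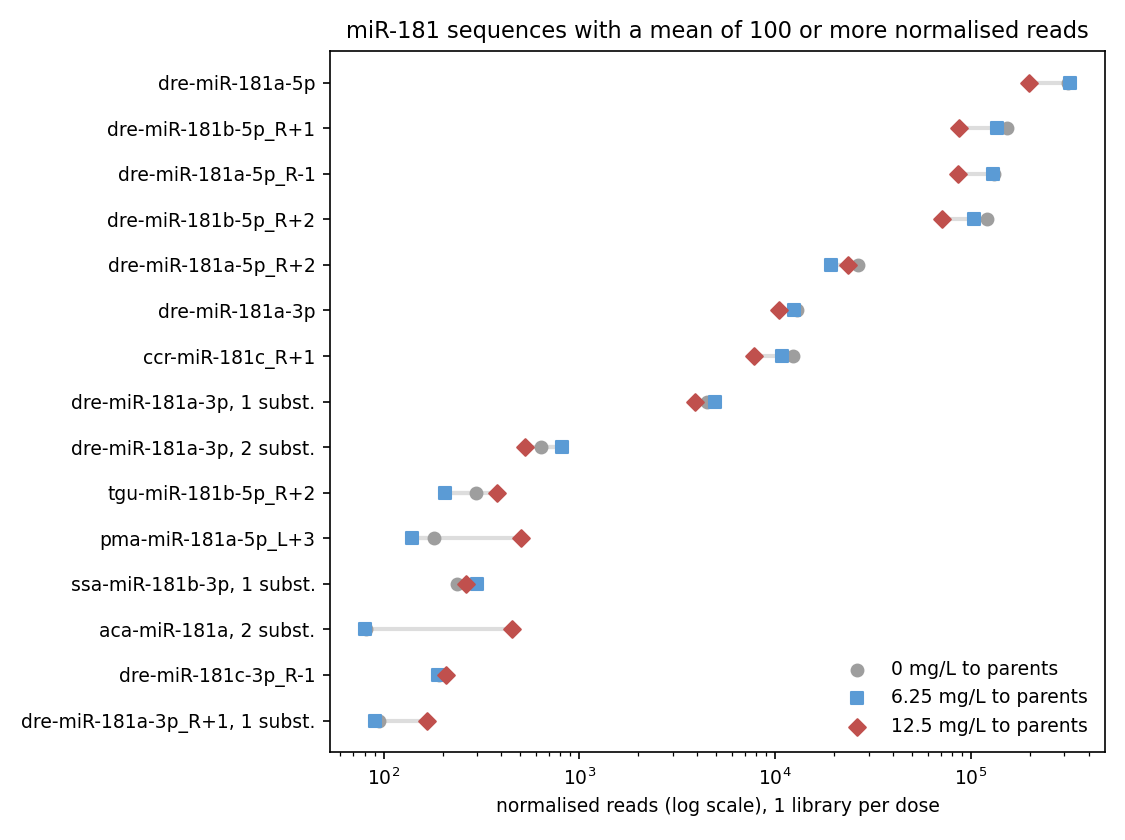
Normalised reads (log axis) of the 15 miR-181 sequences with a mean of 100 or more, 1 point per library and 1 library per dose, with names as deposited and substitutions given by their number. The most abundant 5p forms lie lowest in the high-dose library, while the scarce lizard-named and lamprey-named 5p forms lie highest there, at 455 and 503 normalised reads.

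With all forms of an arm summed, miR-181a-5p had 471897 normalised reads in the control library, 467792 in the low-dose library and 307965 in the high-dose library. miR-181b-5p had 273257, 240109 and 158626 in the order of doses. The order of the 5p paralogs, with miR-181a above miR-181b above miR-181c, was the same in each library. At 12.5 against 0 mg/L the summed ratio was 0.653 for miR-181a-5p (0.650 to 0.655), 0.581 for miR-181b-5p (0.577 to 0.584) and 0.635 for miR-181c-5p.

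**Figure D2:**
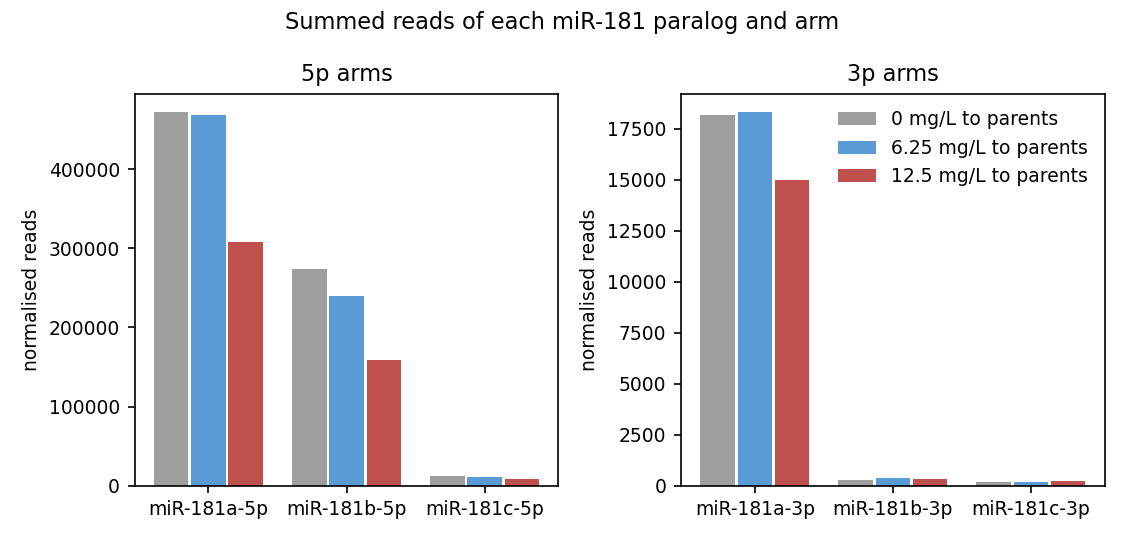
Summed normalised reads of each paralog in the 5p arm (left) and the 3p arm (right), 1 bar per library, with separate linear axes from 0. The 5p sums are lowest in the high-dose library for all 3 paralogs, and in the 3p arm miR-181a, at 15008 normalised reads in the high-dose library, far exceeds miR-181b and miR-181c.

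The balance between paralogs can be read within a library, where the scaling between libraries has no part. miR-181a-5p had 1.73 reads per read of miR-181b-5p in the control library, 1.95 in the low-dose library and 1.94 in the high-dose library. The share of miR-181b in the 5p reads of the family was 36.1% (36.0 to 36.2), 33.4% (33.3 to 33.5) and 33.4% (33.3 to 33.5) in the same order. Both dosed libraries thus had a smaller miR-181b share than the control library and differed from each other by less than counting error. The family was chosen in part by low miR-181b-5p at the high dose, so the smaller share there supports nothing by itself. miR-181c-5p kept a small share, 1.62% (1.59 to 1.65) in the control library, 1.5% (1.47 to 1.53) in the low-dose library and 1.64% (1.61 to 1.67) in the high-dose library. Of its own reads and those of miR-181b-5p R+1 together, miR-181c-5p made up 7.47% (7.33 to 7.61) in the control library, 7.33% (7.20 to 7.47) in the low-dose library and 8.23% (8.09 to 8.38) in the high-dose library.

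The 3p arms were the minor products of every paralog. miR-181a-3p without a substitution had 12977 normalised reads in the control library, 12515 in the low-dose library and 10425 in the high-dose library. The T16C sequence had 4471, 4902 and 3890, and the sequence with T16C and A20G had 640, 818 and 526, in the order of doses. The unsubstituted arm was lower in the high-dose library than in the control library with a ratio of 0.803 (0.784 to 0.824), the T16C sequence with 0.870 (0.835 to 0.907) and the sequence with T16C and A20G with 0.823 (0.736 to 0.921). These differences were smaller than those of the commonest miR-181a-5p forms. With equal totals the 3 log2 ratios were 0.00, 0.12 and 0.04, so that none of the 3 was lower under that scaling.

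The T16C sequence extended by 1 nt was deposited both as a substituted zebrafish miR-181a-3p and as an unsubstituted lamprey miR-181a-3p. Both names mark the added base, and they give the C of T16C both as a substitution and as the annotated base. Whether the sequence comes from another gene copy was not tested. Sequences with T16C took 28.6% of miR-181a-3p reads in the control library (27.9 to 29.3), 31.7% in the low-dose library (31.0 to 32.4) and 30.5% in the high-dose library (29.9 to 31.2). The extended T16C sequence had 94.4 normalised reads in the control library, 89.9 in the low-dose library and 167 in the high-dose library. It was higher at the high dose than in the control (ratio 1.77, 1.36 to 2.30) under every scaling tried. Its mean reached 100, the limit for naming a member, only through the high-dose library, so its naming favours such a rise.

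miR-181b-3p and miR-181c-3p were scarce. The salmon-named miR-181b-3p with G16A had 237 normalised reads in the control library, 300.4 in the low-dose library and 262 in the high-dose library. miR-181c-3p had 191, 190.0 and 209. Between the high-dose and the control library their ratios were 1.11 (0.929 to 1.32) and 1.09 (0.901 to 1.33) with the authors' scaling, intervals that include 1. With equal totals the ratios were 1.38 (1.16 to 1.65) and 1.37 (1.12 to 1.67), so that whether either was higher depended on the scaling.

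Within each paralog the 3p share was largest in the high-dose library. For miR-181a it was 3.71% in the control library (3.65 to 3.77), 3.77% in the low-dose library (3.72 to 3.82) and 4.65% in the high-dose library (4.59 to 4.71). For miR-181b it was 0.104% (0.0908 to 0.117), 0.154% (0.138 to 0.171) and 0.191% (0.173 to 0.209), and for miR-181c 1.53% (1.31 to 1.79), 1.73% (1.49 to 2.00) and 2.61% (2.33 to 2.93). As a share of all counts, the family's 3p reads were 0.349%, 0.363% and 0.362% in the order of doses. Its 5p reads were 14.2%, 13.8% and 11.1%. The family was chosen in part by low miR-181b-5p at the high dose, so the larger 3p share there supports nothing by itself. Outside the family, the share of the minor arm was larger in the high-dose than in the control library in 24 of the 48 miRNAs with at least 100 reads of both arms in every library. Those 48 were not chosen in that way. In all 3 libraries miR-181b had the smallest 3p share of the paralogs, with 524 5p reads per 3p read in the high-dose library, against 965 in the control library. Reads under hairpin names fall outside the naming rule and are not in these shares. A mir-181b-1 hairpin name held 56, 78 and 76 counts in the order of doses, beside 240, 362 and 427 counts of miR-181b-3p. A catfish mir-181a hairpin name held 618, 1022 and 1791.

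**Figure D3:**
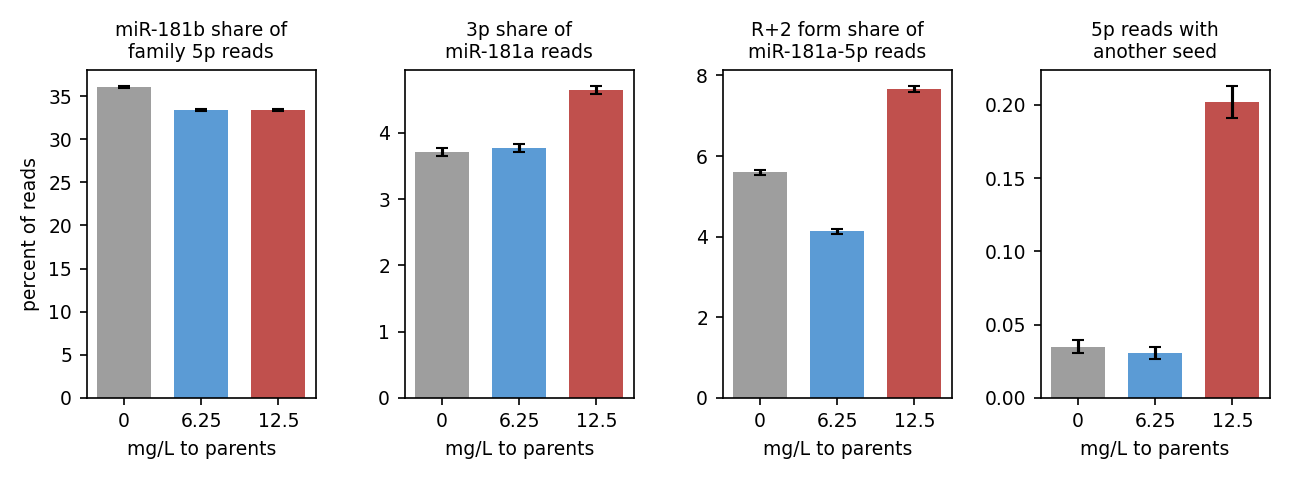
Shares of reads within each library (percent, with 95% exact binomial intervals as error bars, 1 library per dose, axes from 0). The miR-181b share of 5p reads is smaller in both dosed libraries (33.4%) than in the control library (36.1%), and the other 3 shares are largest in the high-dose library.

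The share of the R+2 form differed more between libraries in miR-181a-5p than in miR-181b-5p. It took 5.59% of miR-181a-5p reads in the control library (5.52 to 5.67), 4.13% in the low-dose library (4.08 to 4.19) and 7.66% in the high-dose library (7.58 to 7.74), while the R-1 form took 27.8%, 27.7% and 27.7%. In miR-181b-5p the zebrafish-named R+2 form took 44.2% (44.0 to 44.4), 43.1% (42.9 to 43.3) and 45.0% (44.8 to 45.2) in the order of doses. In both paralogs the longer form thus had its smallest share in the low-dose library and its largest in the high-dose library. Outside the family, names with bases added at the 3′ end took 26.8% of counts in the control library, 26.4% in the low-dose library and 28.4% in the high-dose library, which is the same order of libraries. That is a share of all such counts and not of the reads of an arm. It therefore also moves with the levels of miRNAs whose abundant form carries such a name, as miR-30e-5p R+2 does. The longer share was larger in the high-dose than in the control library in 6 of 11 other arms with at least 100 longer and 100 other reads in every library.

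The 3 scarcest 5p forms had their highest levels in the high-dose library. The lizard-named form with C3A and G20T, whose seed carries the first of these substitutions, had 81.4 normalised reads in the control library, 80.7 in the low-dose library and 455 in the high-dose library. Its mean reached 100, the limit for naming a member, only through the high-dose library, so its naming favours such a rise. The lamprey-named L+3 form, whose added bases move the seed, had 181.7, 139 and 503. Set against the control library, the high-dose ratios were 5.58 (4.35 to 7.27) and 2.77 (2.32 to 3.32). The finch-named miR-181b-5p, the longest form of that arm at 26 nt, had 297, 207 and 380 normalised reads (ratio 1.28 in the high-dose library, 1.10 to 1.49).

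Reads with another seed than ACATTCA made up 0.0347% of the family's 5p reads in the control library (0.0303 to 0.0396), 0.0306% in the low-dose library (0.0266 to 0.0349) and 0.202% in the high-dose library (0.191 to 0.213). Over the whole table, reads whose sequence had a substituted base among the first 8 took 0.148%, 0.151% and 0.412% of counts in the order of doses. Outside the family, 20 of 37 sequences with such a substitution (54.1%) were at least 2-fold higher at 12.5 against 0 mg/L. Between the doses 19 of 37 were. Of all 471 sequences with a mean of at least 10, 10.8% and 11.0% were at least 2-fold higher in these comparisons. For sequences outside the family with bases added at the 5′ end, as in the unsubstituted L+3 form, the counts were 2 of 27 (7.41%) and 3 of 27. The part of these library-wide values in the miR-181 forms was not tested.

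The members were also read against all 471 sequences with a mean of at least 10 normalised reads. Of the 18 miR-181 sequences, 16 passed this filter. The other 2, a miR-181a-3p with T12C and a miR-181b-3p with an unread base (A4N), were below 1 estimated read in every library. In the log2 ratios that follow a pseudocount of 1 was used. At 6.25 against 0 mg/L, 0 of the 16 members were at least 2-fold higher and 0 lower, where 2.55% of all sequences were higher and 2.55% lower. By a rule of 1.5-fold, added after the values were seen, the counts were 0 and 0, where 9.13% of all sequences were higher and 7.43% lower. With equal totals they were 1 and 0, where 11.0% of all sequences were higher and 7.01% lower. The members' log2 ratios ran from -0.52 to 0.58, with a median of -0.04, where all 471 sequences had a median of 0.11.

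At 12.5 against 0 mg/L, 2 of the 16 members were at least 2-fold higher and 0 lower, where 10.8% of all sequences were higher and 4.25% lower. With equal totals 3 members were at least 2-fold higher, where 18.3% of all sequences were. The 2 members that were higher with the authors' scaling were the lizard-named and the lamprey-named 5p forms. At least 1.5-fold lower were 5 members, where 11.9% of all sequences were, namely both miR-181b-5p forms, miR-181a-5p and its R-1 form, and miR-181c-5p. They were 5 of the 8 members with a mean of at least 1000, and of all 164 sequences that abundant 11.6% were at least 1.5-fold lower and 8.54% higher. The 5 are end forms of miR-181a-5p, miR-181b-5p and miR-181c-5p from the same libraries and are not independent. The 19 lower sequences among the 164 include them. The family was also chosen in part by its low miR-181b-5p, so the 5 of 8 support nothing by themselves. With equal totals, 0 of the 16 members were at least 1.5-fold lower and 4 were higher, where 5.31% of all sequences were lower and 39.5% higher. The count of lower members thus depended on the scaling. The median log2 ratio was -0.19 over the 16 members and 0.08 over all 471 sequences, and it was -0.62 over the 9 5p members and -0.18 over the 7 3p members. By the rule of 1.5-fold, 3 members were higher, where 22.7% of all sequences were.

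**Figure D4:**
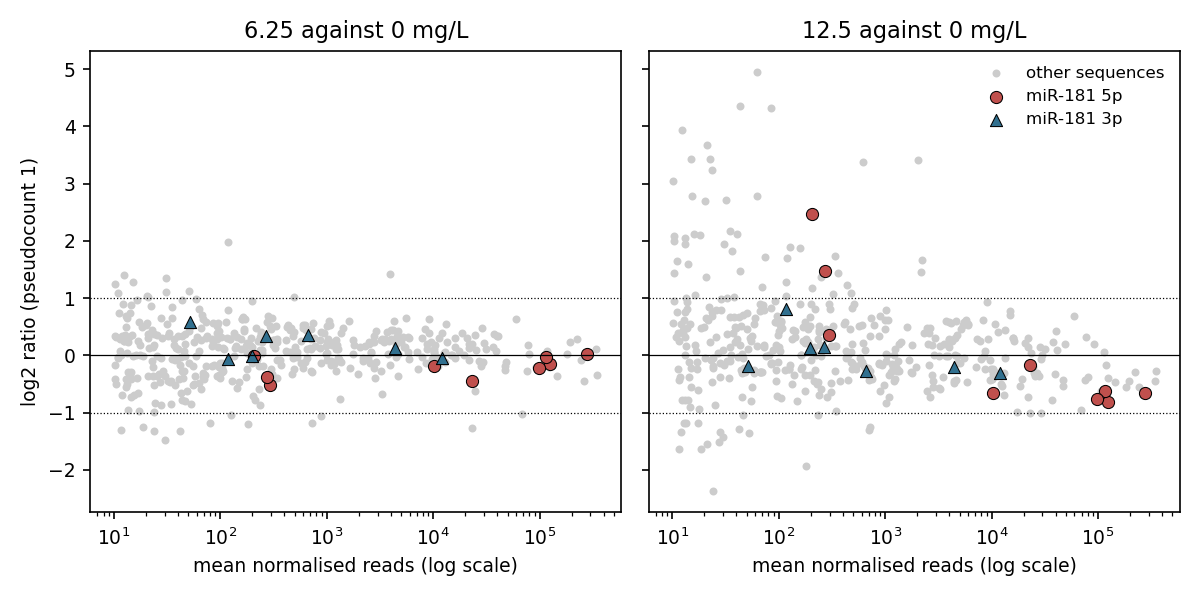
Log2 ratio (pseudocount 1) against mean normalised reads (log axis) for 471 sequences, with miR-181 5p and 3p members marked and dotted lines at 2-fold; both panels use the same control library. At the high dose the abundant 5p members lie below 0 and the lizard-named and lamprey-named 5p members lie above the upper dotted line, at 2.47 and 1.47.

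Between the doses, 12.5 against 6.25 mg/L, 2 of 16 members were at least 2-fold higher and 0 lower, where 11.0% of all sequences were higher and 3.40% lower. They were again the lizard-named form (ratio 5.63, 4.45 to 7.21) and the lamprey-named form (3.62, 3.01 to 4.39). miR-181a-5p had a ratio of 0.621 (0.618 to 0.624) and miR-181b-5p R+1 of 0.637 (0.632 to 0.642). At least 1.5-fold higher were 4 members and lower 5, where 19.3% of all sequences were higher and 14.6% lower. The lower ones were not the same 5 as at 12.5 against 0 mg/L. They were miR-181a-5p, its R-1 form, miR-181b-5p R+1, miR-181a-3p with T16C and A20G, and a scarce miR-181b-3p form. That scarce form had 68 counts in the low-dose library and 57 in the high-dose library. miR-181b-5p R+2 and miR-181c-5p, with ratios of 0.689 and 0.723, were not among them. With equal totals 4 members were at least 1.5-fold higher and 0 lower, where 29.5% of all sequences were higher and 5.52% lower, so that all 5 lower members were lost under that scaling. Under that scaling these 4 members were also at least 2-fold higher, as were 15.5% of all sequences. In this comparison the summed 5p arms of miR-181a and miR-181b were alike, at 0.658 for miR-181a-5p (0.656 to 0.661) and 0.661 for miR-181b-5p (0.657 to 0.664). miR-181c-5p, at 0.723 (0.704 to 0.742), lay above both.

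Lists of miRNAs from tissues where miR-181 is known were set beside the family. A brain list of 10 families (miR-9, miR-124, miR-128, miR-137, miR-138, miR-153, miR-218, miR-219, miR-132 and miR-7) had 51 sequences past the filter. Their median log2 ratio was 0.11 at 12.5 against 0 mg/L (0.08 over all 471 sequences). Of the 51, 7 were at least 2-fold higher and 1 lower, where 10.8% of all sequences were higher and 4.25% lower. The 51 include end and substitution forms of the same miRNA. An eye list of 5 families (miR-182, miR-183, miR-96, miR-204 and miR-184) had 8 sequences with a median of 0.29, 0 higher and 0 lower. A lymphoid and blood immune list of 5 families (miR-150, miR-142, miR-155, miR-146 and miR-223) had 7 sequences with a median of 0.06, 0 higher and 2 lower. At 6.25 against 0 mg/L the medians were 0.11, -0.20 and -0.05 in the order of these lists, where all 471 sequences had 0.11. Of the sequences, 1, 0 and 0 were at least 2-fold higher and 0, 1 and 1 lower (2.55% and 2.55% of all sequences). At 12.5 against 6.25 mg/L the medians were 0.07, 0.49 and 0.08, where all 471 sequences had -0.002. There 6, 3 and 0 were at least 2-fold higher and 1, 0 and 1 lower (11.0% and 3.40% of all sequences). The 3 of the eye list include the scarce lamprey-named miR-204-5p R+3, at 48.0 and 106 normalised reads at 6.25 and 12.5 mg/L. They also include the lizard-named miR-184-3p R+1, at 42.9 and 99.97. The abundant miR-204-5p had a log2 ratio of 0.31. The eye list, too, holds end forms of the same miRNA.

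The pattern most like that of miR-181a-5p was sought among 112 zebrafish-named sequences outside the family, without a substitution and with a mean of at least 1000. Likeness was the distance between the pairs of log2 ratios at 6.25 and 12.5 mg/L against the shared control library, over 3 libraries. The 5 nearest to miR-181a-5p were miR-144-5p (distance 0.07), miR-726 R+1 (0.09), miR-9-5p R-1 (0.11), miR-103 (0.13) and miR-459-3p (0.14). The 5 nearest to miR-181b-5p R+1 were miR-459-3p (0.10), miR-103 (0.10), miR-217 R+1 (0.12), miR-22a-3p (0.19) and miR-726 R+1 (0.20). miR-9-5p R-1, the most abundant of these, had 202725 normalised reads in the control library, 205556 in the low-dose library and 137620 in the high-dose library.

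The authors' deposited table gave a chi-square p-value below 0.05 over the 3 libraries for 16 of the 18 members and for 439 of 1202 sequences in all. Those p-values compare single libraries and not conditions, and they depend on how many reads a sequence has.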

How the data were processed

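Small RNA of whole larvae was sequenced as 1 library per parental dose (0, 6.25 and 12.5 mg/L). Per the labels' protocols, RNA was taken up in Trizol and libraries were made with the TruSeq small RNA kit. Zv9 was the genome build, per the submitters' processing notes. No aligner, database release or counting rule was given in the sources used here. The authors deposited estimated counts (expected counts) per sequence, in part fractional (21 of the 54 values of the family, tolerance 1e-09). They were rounded here for the intervals. Per the file headers the authors also deposited a normalised signal, which equals the count times 1 factor per library (1.18, 1.02 and 0.709 in the order of doses), and a chi-square p-value. The 3 tables of library pairs were not used. Rows with equal sequence were merged under the most abundant. The arm of 2 members without one in the name was taken from the read.

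Members averaging at least 100 normalised reads were named. The members and lists were chosen with earlier results of these data known. Python 3.11.15, pandas 2.3.3, scipy 1.17.1 and numpy 2.4.6 were used, and the ratio code was tested on simulated data. Alternatives were other scalings, pseudocounts of 0.5 and 10, other filters, zebrafish names only, no substituted sequences and all rows.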

Additional observations from a re-analysis of the deposited data

How the results depend on the processing

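Log2 ratios of the family total were -0.07 at 6.25 against 0 mg/L, -0.66 at 12.5 against 0 mg/L and -0.59 between the doses. Equal totals gave -0.035, -0.34 and -0.31, and the median of ratios gave -0.16, -0.78 and -0.63. These scalings shift every ratio of a comparison alike, by 0.32 and -0.12 at 12.5 against 0 mg/L. For summed miR-181a-5p (-0.62 at 12.5 against 0 mg/L) they gave -0.30 and -0.73, and for miR-181b-5p (-0.78) -0.46 and -0.90. The sign of a member could depend on the scaling at 12.5 against 0 mg/L. For miR-181a-5p R+2 it was -0.16 with the authors' values and 0.16 with equal totals. Keeping all rows gave -0.045 and -0.62 for the family at 6.25 against 0 mg/L and between the doses, and -0.64 for miR-181a-5p at 12.5 against 0 mg/L. Leaving out miR-181a-5p, chosen after the data were seen, gave -0.14 and -0.52. Zebrafish names only gave -0.60 between the doses, and no substituted sequences -0.67 at 12.5 against 0 mg/L. The number of members at least 2-fold higher, 2 at 12.5 against 0 mg/L and 2 between the doses, was 3 and 4 with equal totals, where 18.3% and 15.5% of all 471 sequences were. It was 0 and 0 with zebrafish names only and 1 and 1 without substituted sequences, because those settings remove the members concerned. The share of all sequences under those settings is not given here. A rule of 1.5-fold, added later, gave 5 lower at 12.5 against 0 mg/L (11.9% of all sequences). Between the doses it gave 4 higher (19.3%) and 5 lower (14.6%). The same rule with equal totals gave 1 higher at 6.25 against 0 mg/L (11.0% of all sequences), 4 at 12.5 against 0 mg/L (39.5%) and 4 between the doses (29.5%), with 0 lower in each. The share of substituted reads in the family was 0.718%, 0.849% and 1.09% in the order of doses, and 0.682%, 0.800% and 0.954% with zebrafish names only. Most of these reads were miR-181a-3p sequences with T16C, at 4412.5 of 4721.6 counts in the control library. In the high-dose library they were 6463.5 of 7532.7 counts. Without substituted sequences the 3p share of miR-181a was 2.68%, 2.61% and 3.28%, since the T16C sequences leave. Pseudocounts of 0.5 and 10 and the other filters moved none of these results beyond counting error. No paired analysis was possible because each group has 1 library. Scarce 3p forms are limited by depth.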

Other observations

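Beside the 18 members, 3 sequences of the table belong to miR-181 hairpins by name or by sequence but fall outside the naming rule, and they were looked at after the values were seen. A sequence under a catfish hairpin name (ipu-mir-181a-5-p3) has the seed of miR-181a-3p and had 729 normalised reads in the control library, 1044 in the low-dose library and 1269.8 in the high-dose library, so that its values ascended with dose. Its ratios to the control library were 1.43 and 1.74, where those of the unsubstituted miR-181a-3p were 0.964 and 0.803. A sequence under the zebrafish hairpin name of mir-181b-1 had 66.1, 79.7 and 53.9 normalised reads in the order of doses. A candidate sequence that holds the miR-181a-3p form with T16C and A20G plus 1 nt had 59.0, 69.5 and 39.7, the same order of libraries as the shorter form. None of these was tested, with 1 library per dose.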
